A study of Mus musculus with 30 samples.

Results

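The genes Adipoq, Plin1, Fabp4, Cfd, Cidec, Car3, Retn and Lipe are known from fat cells and were followed through stromal cells sorted from mouse bone, lung and brain. They are 8 of the 43346 genes of the count table, found by symbol, and they were selected on their counts in the bone libraries, with lung and brain as contrast. Their bone levels are therefore a description with no test. Lung and brain values served as the contrast, so comparisons of exposed with control libraries within lung and within brain may not be independent of that choice. Those comparisons were tested, but their outcome is read as a description too. All 8 passed the low count filter in bone, 6 passed it in lung and 1 passed it in brain. The study placed 100000 GFP and luciferase labelled cells of a human circulating tumour cell (CTC) line in the left heart ventricle of female NSG mice aged 6 to 8 weeks, a strain without mature lymphocytes, which carried estrogen pellets under the skin. Tumours were dissociated, and 50000 cells without GFP, that is cells of the host, were sorted for each library. Exposed bone gave 13 libraries, numbered here 1 and 2 (Brx07, leg and skull), 3 to 6 (Brx50) and 7 to 13 (Brx68). Exposed lung gave 7 libraries (1 and 2 from Brx07, 3 from Brx42, 4 to 6 from Brx50, 7 from Brx68), and exposed brain gave 3, all from Brx50. Stroma with no CTC exposure gave 3 bone, 2 lung and 2 brain control libraries. The labels give 1 protocol for all samples and do not say separately whether the control mice carried the pellets, or whether each library stands for its own mouse, so p-values measure only the spread between these libraries, which may be technical.

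White adipocytes store triglyceride in a single large droplet. Perilipin 1 (Plin1) and Cidec coat that droplet and govern its growth, hormone-sensitive lipase (Lipe) breaks the stored fat down, and the fatty acid binding protein Fabp4 carries fatty acids in the cytosol. Adiponectin (Adipoq), resistin (Retn) and complement factor D, also called adipsin (Cfd), are secreted into blood, and carbonic anhydrase 3 (Car3) is an abundant cytosolic enzyme of fat and slow muscle. Marrow holds adipocytes of its own, and its reticular stromal cells, which share an origin with them, can make adiponectin. Fabp4 is also known from capillary endothelium and macrophages, Cidec from other lipid-rich cells and Lipe from steroid-producing cells, so several of these genes are not specific to fat cells.

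Total counts ran from 7058861 to 15646947 in exposed bone, 10625392 to 12989953 in bone controls, 8483907 to 14170063 in exposed lung, 10751803 to 11160784 in lung controls, 4289012 to 9685820 in exposed brain and 6270956 to 7504650 in brain controls. Where a gene had no count, up to 3 counts remain possible, or 0.192 to 0.425 CPM (counts per 1000000 counts of the library) in exposed bone, a limit for counting error only. Exposed bone libraries differed widely in the cells they held: neutrophil markers (8 genes, summed) ran from 29.6 to 54950 CPM while controls lay between 30690 and 40550, and macrophage markers (8 genes) ran from 157 to 5256 while controls lay between 3500 and 3711. Library 7 stood apart, with 14769 genes detected, the fewest, against 22875 to 22917 in bone controls. It was the highest of the 16 bone libraries for 13.9% of the 18278 genes that passed the filter.

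Markers of fat cells were uneven in bone. Fabp4, Lipe and the droplet protein Plin4 were found in every bone library, at no less than 49.5, 21.9 and 7.31 CPM, and Adipoq in every control. Plin1 was under 3 CPM in every library but number 7, leptin (Lep), the satiety hormone of white fat, was at 0 in 12 of 13 exposed and 2 of 3 control libraries, with a highest value of 0.114 CPM, and Ucp1, the uncoupler of brown fat, reached at most 1.56 CPM. Adipocyte is therefore used here for what these genes are known from, not for cells shown to be in the libraries. By level, the members fell into 3 patterns over the bone libraries, and ranks bore these out only in part. Plin1, Cidec and Cfd were under 1 CPM in controls and high together in a few exposed libraries, most of all library 7. Adipoq and Retn were present in controls and spread to both sides in exposed bone. Fabp4 and Lipe were abundant in every bone library and kept a pattern of their own, while Car3 was above the controls in each exposed library.

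**Figure D1:**
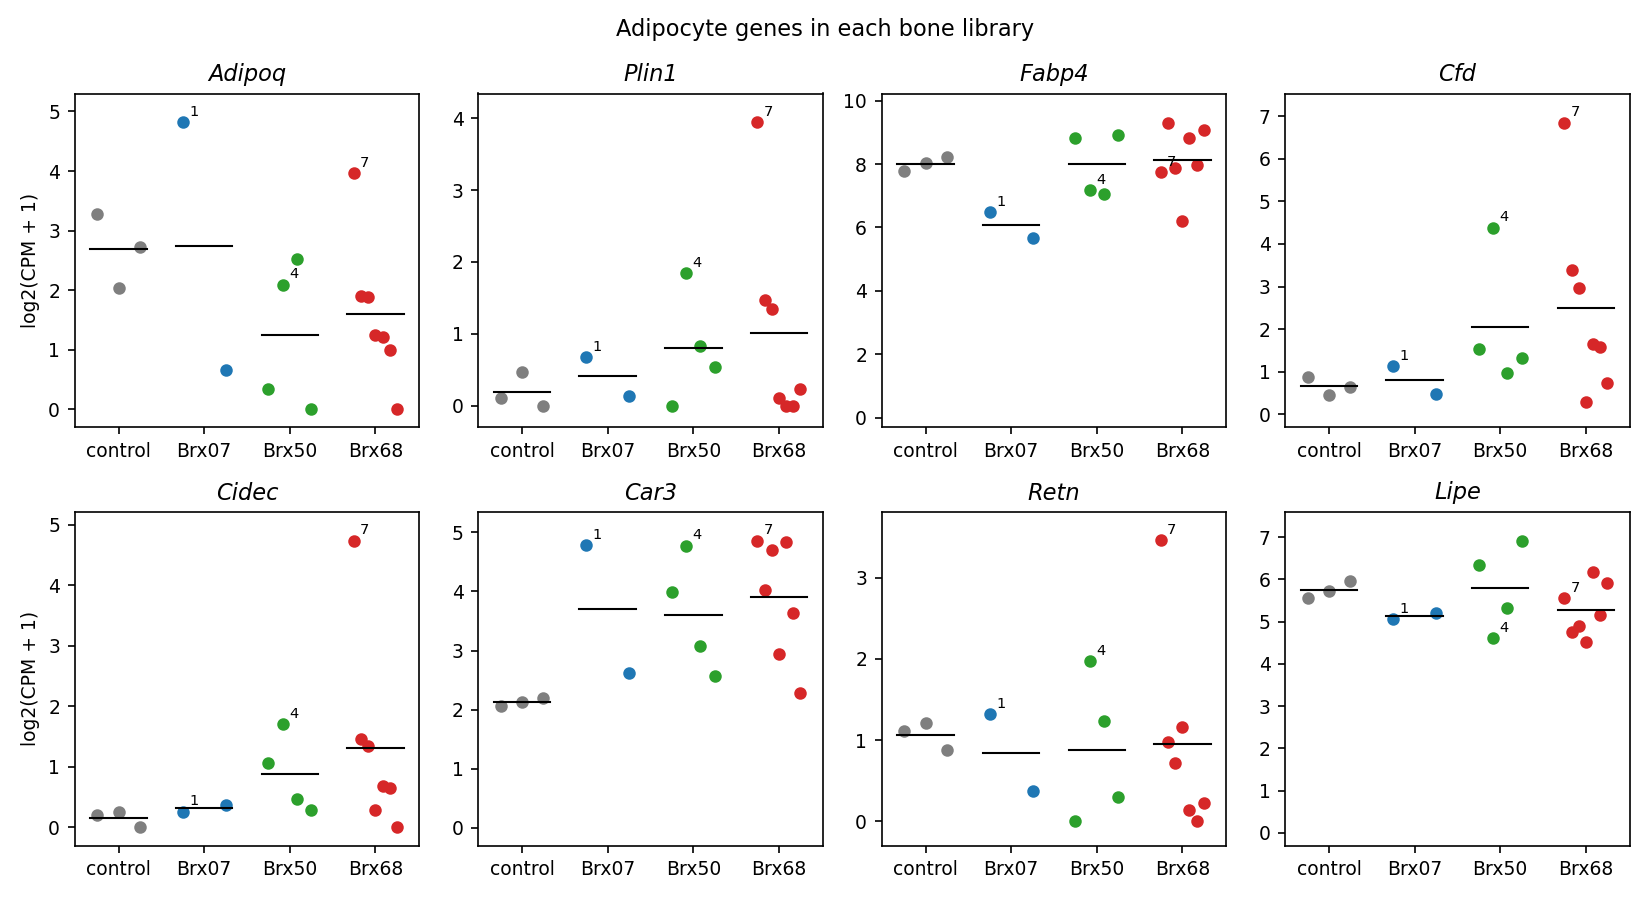
Level of each gene, as log2(CPM + 1), in each of 16 bone libraries grouped as control, Brx07, Brx50 and Brx68, with the group mean as a black line and libraries 1, 4 and 7 numbered. Library 7 is the highest point for Plin1, Cfd, Cidec, Car3 and Retn, library 1 for Adipoq, and all Car3 points of exposed bone lie above the 3 controls.

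Of the droplet proteins, Plin1 (ENSMUSG00000030546, GRCm38 chr7:79720218-79732903, minus strand), which shields stored fat from lipases, stood at 0.0770, 0.377 and 0 CPM in the 3 bone controls. In the 13 exposed libraries its lowest level was 0, its median 0.457 and its highest 14.5 CPM, the last being 111 counts in library 7. Library 4 followed with 2.59, library 8 with 1.76 and library 9 with 1.53 CPM, and 3 exposed libraries were at 0. Exposed and control levels overlapped: 7 exposed libraries were above the highest control and 6 lay within the range of the controls. Library 7 alone held 62.9% of the gene's summed CPM over the 16 bone libraries. Without it the exposed mean fell from 1.73 ± 3.91 CPM (SD, n = 13) to 0.671 ± 0.851 (n = 12), against 0.151 ± 0.199 (n = 3) in controls.

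Cidec (ENSMUSG00000030278, chr6:113424634-113435760, minus strand), which passes lipid between droplets so that they fuse, stood at 0.154, 0.188 and 0 CPM in bone controls. It ran from 0 through a median of 0.567 to 25.7 CPM in exposed bone, and the highest value, 197 counts, was again library 7, 11.4 times the next library. Libraries 4, 8 and 9 came next at 2.25, 1.76 and 1.53 CPM, the same 3 libraries in the same order as for Plin1. Here 12 of 13 exposed libraries were above the highest control in CPM. Of these, libraries 1 and 6 held 2 counts, as that control did, and several others only a few more. The exposed mean was 2.68 ± 6.94 CPM with library 7 and 0.762 ± 0.728 without it, against 0.114 ± 0.1003 in controls.

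Cfd (ENSMUSG00000061780, chr10:79890853-79892655, plus strand), the serine protease that starts the alternative complement pathway, stood at 0.847, 0.377 and 0.555 CPM in bone controls. In exposed bone its lowest level was 0.219, its median 1.92 and its highest 113.9 CPM, or 875 counts in library 7. Library 4 stood at 19.8, library 8 at 9.42 and library 9 at 6.77 CPM, and the other exposed libraries at 2.12 or below. This was the same order of libraries as for the droplet proteins, on a scale several times higher. In all, 10 exposed libraries were above the highest control, 2 were within the controls' range and 1 was below it. The exposed mean was 12.4 ± 31.0 CPM with library 7 and 3.91 ± 5.73 without it, against 0.593 ± 0.237 in controls.

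The stretch before the start of these genes is shown because Cfd and Cidec moved together over the bone libraries and Adipoq did not move with them. RefSeq (GRCm38.p6) windows were found for 6 of the 8 genes, and the 250 bases upstream of a start were searched on both strands for TATAAA, for CCAAT, for the C/EBP core TTGCNNAA and for 2 copies of the half-site AGGTCA spaced by 1 base with at most 2 mismatches, a form bound by PPAR gamma. Adipoq at chr16:23146286-23146535 (plus strand) held 3 CCAAT matches, in capitals, within its last bases, and no CG dinucleotide. Cidec at chr6:113434765-113435014 (minus strand), before a RefSeq start inside the gene where GENCODE has an intron, held 1 C/EBP core, in capitals. The second Cidec window, chr6:113435761-113436010, lies directly before the annotated start of the gene. It held no match and 4 CG dinucleotides, and its sequence is not printed here. Cfd at chr10:79890603-79890852 (plus strand) held no match. The sequences read as follows, 5′ to 3′.
Adipoq: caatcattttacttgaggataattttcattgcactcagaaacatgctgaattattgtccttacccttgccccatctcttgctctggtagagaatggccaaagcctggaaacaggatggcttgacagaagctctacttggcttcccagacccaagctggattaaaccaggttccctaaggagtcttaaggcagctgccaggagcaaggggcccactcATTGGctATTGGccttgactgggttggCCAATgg
Cidec: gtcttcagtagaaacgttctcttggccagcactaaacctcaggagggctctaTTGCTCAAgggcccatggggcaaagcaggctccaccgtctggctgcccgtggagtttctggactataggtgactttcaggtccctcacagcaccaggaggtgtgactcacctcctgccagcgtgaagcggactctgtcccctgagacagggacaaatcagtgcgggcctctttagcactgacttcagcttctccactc
Cfd: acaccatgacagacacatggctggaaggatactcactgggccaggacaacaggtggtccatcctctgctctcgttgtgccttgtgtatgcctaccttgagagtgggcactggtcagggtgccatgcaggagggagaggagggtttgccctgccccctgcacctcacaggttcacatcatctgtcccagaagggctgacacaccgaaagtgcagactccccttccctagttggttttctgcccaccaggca
Of all 32851 windows of this length, 33.8% held CCAAT, 9.56% the C/EBP core, 12.4% TATAAA and 3.24% the paired half-sites. Among the 8 windows of the members, CCAAT occurred in Adipoq alone. The C/EBP core occurred in the Cidec window inside the gene and, with 2 matches, in Plin1. No member window held TATAAA or the paired half-sites. Adipoq held 0, Cfd 2 and this Cidec window 6 CG dinucleotides, against a median of 6 over all windows. A match is a stretch of letters, and nothing was measured at these sites here.

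Adipoq (ENSMUSG00000022878, chr16:23146536-23158028, plus strand), the insulin-sensitising hormone, stood at 8.70, 3.11 and 5.65 CPM in bone controls. Exposed bone ran from 0 through a median of 1.385 to 27.2 CPM. The highest value, 272 counts, was the Brx07 leg library 1, where Plin1 stood at only 0.601, Cidec at 0.200 and Cfd at 1.20 CPM. Library 7 came second at 14.6 CPM. Of the exposed libraries, 9 lay below the lowest control, 2 within the controls' range and 2 above it, and libraries 6 and 13 were at 0. The means were 4.60 ± 7.81 CPM (n = 13) and 5.82 ± 2.80 (n = 3), and without library 1, left out after its value was seen, the exposed mean was 2.71 ± 4.01 (n = 12). The leg and skull libraries of Brx07, which carry the same code in their labels, differed from 27.2 to 0.587 CPM.

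Retn (ENSMUSG00000012705, chr8:3655770-3660110, plus strand), a secreted hormone of mouse fat, stood at 1.15, 1.32 and 0.833 CPM in bone controls. Exposed bone ran from 0 through a median of 0.639 to 10.02 CPM, with library 7 highest at 77 counts and library 4 next at 2.93 CPM. Here 7 exposed libraries lay below the lowest control, 4 above the highest and 2 between. Its mean was 1.496 ± 2.69 CPM with library 7, 0.785 ± 0.870 without it and 1.102 ± 0.247 in controls, so that with library 7 the exposed mean lay above that of the controls and without it below.

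Car3 (ENSMUSG00000027559, chr3:14863512-14872523, plus strand), which hydrates carbon dioxide, stood at 3.16, 3.39 and 3.61 CPM in bone controls. Exposed bone ran from 3.87 through a median of 14.9 to 28.0 CPM, and the groups did not overlap: all 13 exposed libraries were above all 3 controls. Of the 18278 genes that passed the filter, 6 (0.0328%) had every exposed bone library above every control and 37 (0.202%) had every one below. Since the gene was chosen with these values known, nothing is read from that share. Library 7 was highest, but libraries 11 (27.4 CPM), 1 (26.5), 4 (26.4) and 9 (25.1) were close to it, and the mean without it, 14.6 ± 9.42 CPM, hardly moved from 15.6 ± 9.75.

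Fabp4 (ENSMUSG00000062515, chr3:10204088-10208576, minus strand) was the most abundant member. It stood at 219, 262 and 295 CPM in bone controls, and at a lowest 49.5, median 234 and highest 627 CPM in exposed bone. Library 8 was highest, followed by libraries 13 (533) and 6 (482), while both Brx07 libraries (88.5 and 49.5) and library 10 (73.3) were lowest. The exposed libraries lay on both sides of the controls, 5 above, 6 below and 2 within, and library 7 was 11th of 16 at 212 CPM. Lipe (ENSMUSG00000003123, chr7:25379527-25398710, minus strand) stood at 46.0, 51.8 and 61.3 CPM in controls and at a lowest 21.9, median 35.6 and highest 118.6 CPM in exposed bone. Library 6 was highest, then libraries 3 (79.3) and 11 (71.2), and library 7 was seventh at 46.2 CPM. Lipe overlaps the antisense gene 4732471J01Rik, and since the strand setting of the counts is not given, reads of the pair cannot be told apart. For both genes the difference of the means was smaller than the spread of the libraries: 286 ± 196 against 259 ± 38.0 CPM for Fabp4 and 47.4 ± 28.0 against 53.0 ± 7.73 for Lipe.

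Over the 16 bone libraries, Pearson's r of log2(CPM + 1) was 0.95 between Cfd and Cidec, 0.93 between Plin1 and Cfd and 0.93 between Plin1 and Cidec. Without library 7 these were 0.93, 0.83 and 0.73. Adipoq correlated with Retn at 0.71 (0.68 without library 7) but with Cidec at 0.34, which became -0.06 without that library. Retn correlated with Plin1 at 0.85 and with Cfd at 0.70, which became 0.61 and 0.29. Fabp4 correlated with Lipe at 0.57 with or without library 7, and Lipe had a negative r with each of the 6 other members. By rank over the 16 libraries, Spearman's rho was 0.85 between Cfd and Cidec. For Plin1 it was 0.49 with Cfd and 0.48 with Cidec, below the 0.69 with Retn. These values describe 16 libraries that share their tissue, differ in depth and cell makeup, and were seen when the genes were chosen, so they carry no test.

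**Figure D2:**
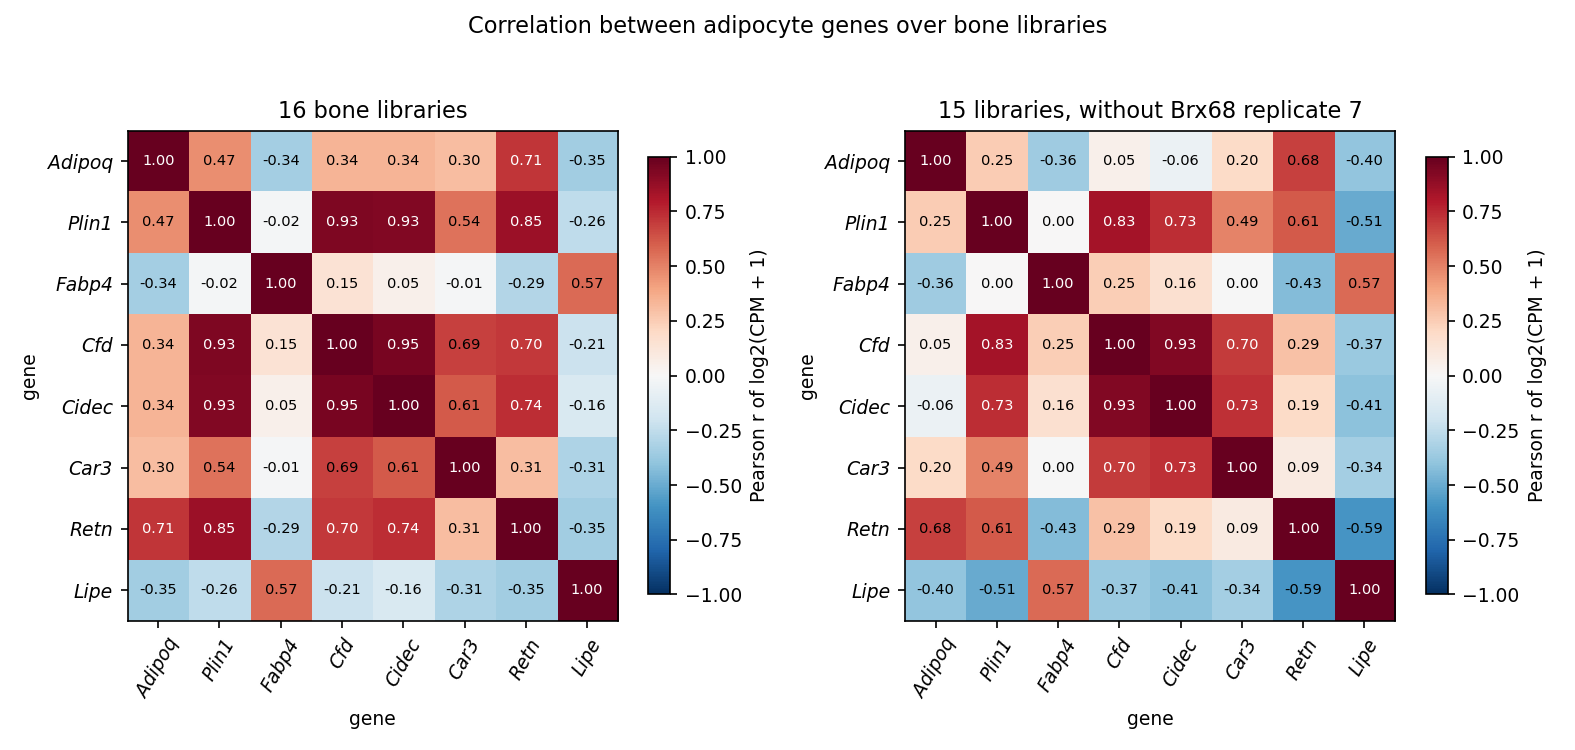
Pearson's r of log2(CPM + 1) for each pair of the 8 genes, over 16 bone libraries at left and over 15 without library 7 (Brx68) at right, on a colour scale from -1 to 1. Plin1, Cfd and Cidec stay near each other in both panels at 0.73 or above, while Adipoq loses its r with Cfd (0.34 to 0.05) and Cidec, and Fabp4 and Lipe pair at 0.57 in both.

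Other adipocyte genes were read by role in library 7. Of 39 such genes, 11 (28.2%) had their highest bone value there, beside 5 of the 8 members (62.5%) and 13.9% of all genes that passed the filter. Among droplet proteins, Plin4, a perilipin of white fat, stood at 160 CPM against 7.31 to 48.9 in the other 15 bone libraries. Plin2, the perilipin of many lipid-loaded cells, was near the bottom of its range at 40.5 CPM (36.7 to 423 elsewhere), and Bscl2 (seipin), needed to form droplets, was within it at 35.0. In triglyceride assembly 4 of 7 genes were highest in library 7, in glucose uptake 2 of 3, in fatty acid synthesis 2 of 7, and in lipolysis and among transcription factors 1 each of 6 and 5. Slc2a4, the insulin-responsive glucose transporter, stood at 15.7 CPM there against 0.113 to 4.64 elsewhere, Irs1, which relays the insulin signal, at 121 against 15.2 to 114, and Pnpla2, the first lipase to act on stored fat, at 129 against 49.0 to 85.5. Aqp7, the glycerol channel of adipocytes, was at 0 in library 7 and at 4.69 to 73.3 CPM in all other bone libraries. Lep, Adrb3, Cidea and Ucp1 were also at 0 there, but were low elsewhere. Their medians over the other 15 bone libraries were 0, 0.0970, 0.504 and 0.684 CPM. A count of 0 allows up to 0.391 CPM in library 7. Trarg1, a partner of the glucose transporter, was lowest there at 0.391 CPM. None of the 4 fatty acid uptake genes and none of the 3 hormone genes peaked in library 7.

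**Figure D3:**
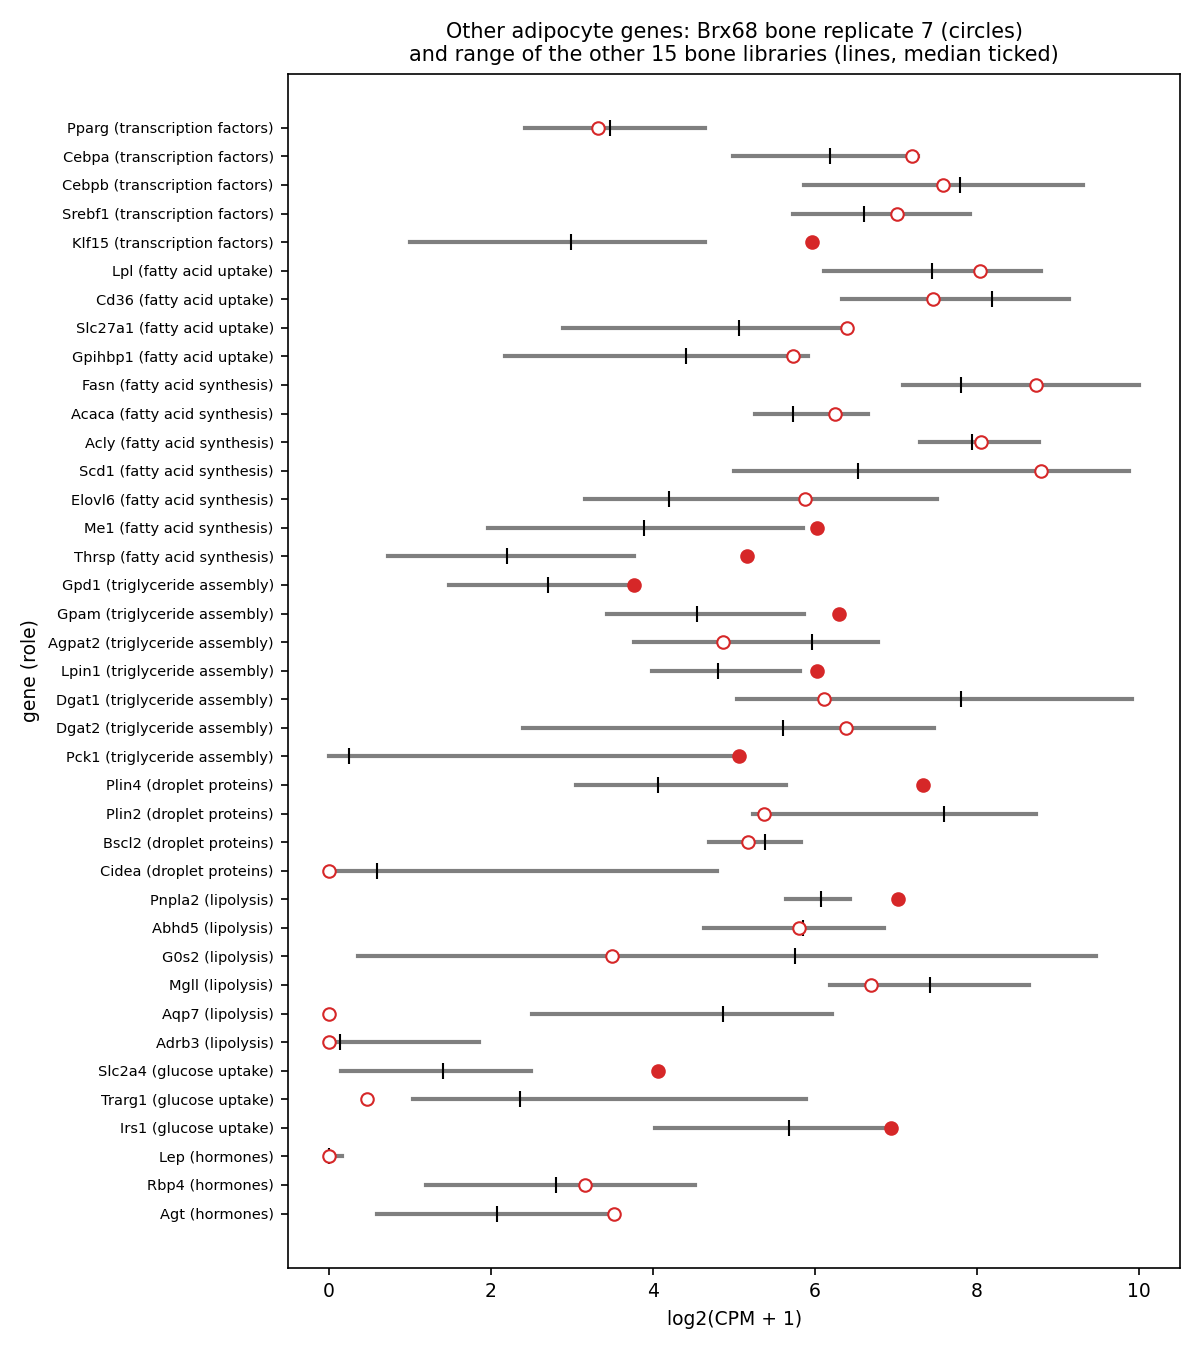
Level, as log2(CPM + 1), of 39 other adipocyte genes by role: circles give library 7 of exposed bone, filled where it is the highest bone library, and grey lines span the other 15 bone libraries with their median as a tick. Of the 39 circles 11 are filled, Plin4, Klf15, Thrsp and Slc2a4 lying clear of their lines, while Aqp7 and Trarg1 lie below theirs.

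When exposed and control bone were compared with edgeR's quasi-likelihood test, it called 0 of the 8 members and 0 of 18278 genes (0%), with 458 genes at an unadjusted p under 0.05, Cfd, Cidec and Car3 among them. DESeq2 called 18 genes and no member. The limma-voom fit with quality weights called 2866 of 18278 genes, 663 higher and 2203 lower. Among them were 2 of the 8 members, Cidec and Car3, both higher. The members' fitted log2 differences (exposed minus control, with standard error) are given as a description: 4.25 ± 1.99 for Cidec, 4.22 ± 1.97 for Cfd, 3.30 ± 1.97 for Plin1, 2.20 ± 0.70 for Car3, 0.33 ± 1.25 for Retn, 0.15 ± 0.65 for Fabp4, -0.22 ± 0.41 for Lipe and -0.36 ± 1.28 for Adipoq. Without library 7 they were 2.66 for Cidec, 2.76 for Cfd, 2.14 for Plin1 and -0.44 for Retn, while Car3 stayed at 2.15. Without library 1 the difference of Adipoq was -1.16. The median over the members was 1.26, over the 37 other adipocyte genes that passed the filter 0.37, and over all genes 0.08.

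None of the other adipocyte genes was called in bone either (0 of 37 tested, 5 at an unadjusted p under 0.05). By role, the most abundant transcription factor was Cebpb, an early factor of fat cell formation also used by myeloid cells, at 239 ± 158 CPM in exposed and 406 ± 20.9 in control bone. Srebf1, which drives lipid synthesis, stood at 119 ± 58.8 against 90.6 ± 4.19, and Cebpa, which maintains the fat cell state, at 82.0 ± 37.9 against 59.8 ± 10.9. Of uptake genes, Cd36, a fatty acid transporter, stood at 283 ± 175 against 326 ± 40.4, Lpl, which frees fatty acids from lipoproteins, at 224 ± 114 against 182 ± 16.8, and Slc27a1 at 41.5 ± 25.6 against 20.6 ± 1.96. Of synthesis genes, Scd1, which desaturates fatty acids, stood at 329 ± 332 against 53.5 ± 1.73 and spanned 30.9 to 935 CPM among exposed libraries, across the controls. Fasn (fatty acid synthase) stood at 352 ± 258 against 210 ± 16.7 and Acly at 239.8 ± 75.04 against 250.4 ± 2.40. The acyltransferases Dgat1 and Dgat2, which complete triglyceride, stood at 315 ± 367 against 711 ± 143 and 59.5 ± 56.0 against 122 ± 12.4, and Agpat2 at 46.3 ± 29.4 against 74.0 ± 5.75. In lipolysis, G0s2, an inhibitor of Pnpla2 that is also abundant in neutrophils, spanned 0.283 to 704 CPM among exposed and 246 to 442 among control libraries, and Mgll, the last lipase of the chain, stood at 185 ± 110 against 183 ± 15.3. Of the hormones, Rbp4, the retinol carrier, stood at 8.47 ± 7.32 against 6.18 ± 2.06 and Agt, angiotensinogen, at 4.46 ± 3.24 against 4.30 ± 3.49. For each gene named in this comparison of roles, some exposed libraries lay below the lowest and some above the highest control.

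Markers of other cells moved with some members. The summed endothelial markers (10 genes, of which Cldn5 was listed at 0 in every library of the 3 tissues) ran from 433 to 3427 CPM in exposed bone and from 2102 to 2371 in controls. Fabp4 had an r of 0.82 with that sum over the 16 libraries and of 0.83 without library 7, and Lipe one of 0.57 in both. The 5 exposed libraries lowest in Fabp4 (2, 10, 1, 5 and 4) were also the 5 lowest in endothelial markers, between 433 and 1340 CPM. Skeletal muscle markers (12 genes) spanned 112 to 6181 CPM among exposed and 199.5 to 204 among control libraries, and 11 of the 13 exposed libraries were above the controls. Car3 had an r of 0.50 with the muscle sum. Exposed libraries 2 and 8 alone lay below the controls for muscle, at 112 and 188 CPM. They held Car3 at 5.18 and 15.3 CPM, above the controls, and library 12, highest in muscle by far, held 11.5. The muscle genes, among them Myh1, Myh2 and Myh4, are mostly those of fast fibres, so slow muscle was not measured by this sum. Without library 7, Adipoq and Retn had an r of 0.80 and 0.74 with the macrophage sum and of 0.63 and 0.72 with the neutrophil sum. With it, they were 0.36 and -0.06 with macrophages and 0.49 and 0.32 with neutrophils, and that library had the lowest macrophage sum (157 CPM). Plin1, Cfd and Cidec had an r between -0.04 and 0.12 with the endothelial sum and between 0.08 and 0.27 with muscle. By rank, Spearman's rho with the endothelial sum was -0.14 for Plin1, 0.35 for Cfd and 0.22 for Cidec, beside 0.80 for Fabp4. Of the 8 bone libraries highest in endothelial markers, 4 were among the 8 highest in Plin1, 7 in Cfd, 6 in Cidec and 6 in Fabp4. Marrow reticular stroma (8 genes, among them Lepr and Cxcl12) ran from 475 to 2092 CPM in exposed bone. Its r was -0.35 with Adipoq, 0.60 with Fabp4 and 0.68 with Lipe. Squamous and sebaceous epithelium (8 genes) reached 5107 CPM in library 7, 8048 in library 8 and 9079 in library 13 while controls lay between 453 and 1019. The sebaceous genes Awat2 and Mc5r were at 0 in library 7, where a count of 0 allows up to 0.391 CPM. Their medians over the other 15 bone libraries were only 0.676 and 0.901 CPM. From the same list, Krt79 stood at 171 CPM in library 7 (median 5.10 elsewhere), and 1 of the 8 genes, Lor, was highest there at 58.5 CPM. The part of these cells in the members' values was not tested, and in bulk libraries fewer cells of a type and less RNA per cell cannot be told apart.

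**Figure D4:**
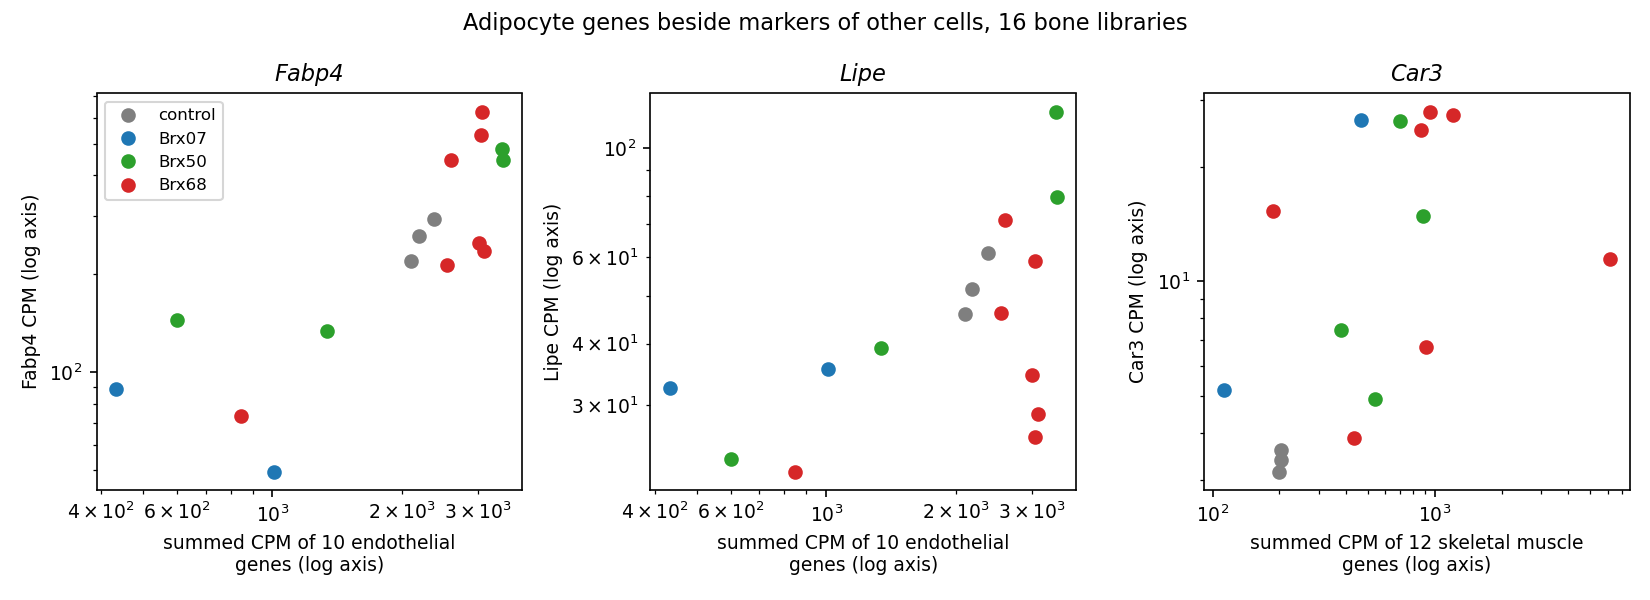
CPM of Fabp4 and Lipe against the summed CPM of 10 endothelial genes, and of Car3 against the summed CPM of 12 skeletal muscle genes, in 16 bone libraries on log axes, coloured by CTC line. Fabp4 is low in the 5 libraries with endothelial sums of 1340 CPM or less, and Car3 of the controls lies below all exposed points, including 2 with muscle sums of 188 CPM or less.

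Likeness was taken as Pearson's r of log2(CPM + 1) with the mean of the 8 members over the 16 bone libraries. The nearest other genes were Ddx50 (r 0.82, Spearman's rho 0.56), Scoc (0.82 and 0.69), Rpain (0.81 and 0.69), Timm8a1 (0.81 and 0.54), Map2k3os (0.80 and 0.46), Cbwd1, Thoc1, Snord49a, Snhg9 and Fkbp5, all with r between 0.78 and 0.82. None of them is in the adipocyte lists, and without library 7 their r dropped to between 0.27 and 0.58, so that this ranking rested largely on 1 library. Likeness to single members, added after these values were seen, separated them again. The genes nearest Fabp4 were Cd36 (0.91), Adgrl4 (0.90), Gngt2 (0.89), Cdh5 (0.87) and Cavin2 (0.87), of which Cdh5 is the cadherin of endothelial junctions, and their r without library 7 was between 0.88 and 0.92. Nearest Lipe were Lrrc36, Coro6, Rapgef3, Itpkb and Bmp6 (0.89 to 0.92, and 0.89 to 0.95 without library 7). Nearest Cidec were Cfd and Plin1, and nearest Adipoq Osbpl11, Card6 and Rgs2 (0.86, 0.86 and 0.83).

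By CTC line, Cfd stood at 19.3 ± 41.9 CPM in 7 Brx68 libraries, 6.05 ± 9.19 in 4 Brx50 libraries and 0.796 ± 0.573 in 2 Brx07 libraries, and Cidec at 4.33 ± 9.42, 0.991 ± 0.922 and 0.247 ± 0.0658. Without library 7 the Brx68 means were 3.53 ± 3.71 and 0.781 ± 0.711, below those of Brx50. Car3 stood at 16.8 ± 10.1, 13.4 ± 9.62 and 15.9 ± 15.1 CPM in the 3 lines, and Fabp4 at 339 ± 199, 302 ± 189 and 69.0 ± 27.6. In the fit of Brx68 against Brx50, edgeR called 0 of the 8 members and 0 of 19052 genes (0%), with 921 genes at an unadjusted p under 0.05, none of them a member, and DESeq2 called 46 genes, again no member.

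In lung, Fabp4 stood at 116 and 97.5 CPM in the controls and at a lowest 12.1, median 60.7 and highest 96.3 CPM in 7 exposed libraries, all below both controls. Every exposed library was below both controls for 302 of the 15630 genes (1.93%) with a mean of 1 CPM or more in lung. Library 6, the lowest, held endothelial markers at 251.7 CPM against 6966 and 8196 in the controls, while library 1, the highest of the exposed, held them at 1948. Over the 9 lung libraries Fabp4 had an r of 0.60 with that sum and of 0.77 with the macrophage sum, and the part of these cells was not tested. The log2 difference of Fabp4 was -0.88 ± 0.60 (SE) and was not called by edgeR's quasi-likelihood test (adjusted p = 1.0). Lipe stood at 78.3 and 69.8 CPM in controls and at a lowest 27.7, median 54.4 and highest 82.0 CPM in exposed lung. Its log2 difference was -0.46 ± 0.37 (SE, edgeR adjusted p = 1.0). Cidec, near 0 in bone controls, stood at 17.8 and 8.74 CPM in lung controls and ran from 0 through 4.71 to 33.9 CPM in exposed lung, spreading across the controls. Plin1 was at 1.61 and 0.930 CPM in controls and at most 2.18 in exposed lung. Retn stood at 1.07 and 1.12 CPM in controls and reached 4.16 in library 6 and 2.79 in library 5. Adipoq, Cfd and Car3 were at most 0.676, 0.806 and 1.80 CPM in any lung library. Of the 6 members tested, 0 were called, as were 0 of 17132 genes (0%), with 118 genes and no member at an unadjusted p under 0.05. DESeq2 called 2 genes and limma-voom 1, none of them a member.

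Cidec in lung varied with macrophage markers. Over the 9 lung libraries, its r was 0.96 (Spearman's rho 0.92) with the summed alveolar macrophage markers (6 genes) and 0.93 with the macrophage list, a description of libraries that share their tissue. Exposed libraries 6 and 1 had the least of both, Cidec at 0 and 0.451 CPM beside alveolar macrophage sums of 63.4 and 232 CPM, and library 4 the most, 33.9 beside 3264. The relation was picked out after its values were seen. In bone the r of Cidec with the same list was -0.26. Chil3 (mean 1062 CPM, the next gene 16.5) made up most of that sum there, so it may read other cells. Retn was highest in the 2 lung libraries with the highest neutrophil sums, 2940 CPM in library 6 and 1345 in library 5. The highest Adipoq, 6 counts in library 1, was in the library with mesothelial markers (3 genes) at 2839 CPM against 12.4 to 212.6 in the other exposed lung libraries. That library was also highest in lung for fibroblast and collagen (58050 CPM, at most 7197 in the others), skeletal muscle (52.0) and brown adipocyte (23.1) sums. The part of these cells was not tested.

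In brain only Lipe passed the low count filter. It stood at 13.2 and 19.8 CPM in controls and at 40.6, 29.1 and 24.4 CPM in the 3 exposed libraries, which did not overlap with the controls. Every exposed library was above both controls for 19.4% of the 17396 genes with a mean of 1 CPM or more in brain. The log2 difference was 0.87 ± 0.36 (SE), with an adjusted p of 0.367 by edgeR's quasi-likelihood test, where 1 of 16734 genes (0.00598%) was called. DESeq2 called 683 genes and limma-voom 899, none of them a member. Cfd was at 0 in all 5 brain libraries and Plin1 in all 3 exposed ones. Adipoq (0.826 CPM, 8 counts), Fabp4 (2.07), Cidec (1.65) and Car3 (2.99) each had their highest brain value in exposed library 2. That library also held the most neutrophil markers, 3831 CPM against 27.7 and 151 in the other exposed and at most 17.2 in control libraries. It was the highest brain library for macrophage (3458 CPM), endothelial (382), marrow reticular (366) and mesothelial (24.3) sums too. The part of these cells was not tested. The difference between the exposure effect in bone and that in lung, and between bone and brain, was called for 0 of the 8 members and 0 of 21233 genes (0%) in each case, with 237 and 1771 genes at an unadjusted p under 0.05. DESeq2 called 10 and 96 genes there and limma-voom 319 and 1645, none of them a member. Among the 23 exposed libraries, 4 label codes of a CTC line recur in more than 1 tissue (9 libraries), and the fit did not take them into account. With Cfd at 0 in every brain library, its exposure effect in brain has no estimate, and DESeq2 gave an adjusted p for only 2 members in the comparison with brain.

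**Figure D5:**
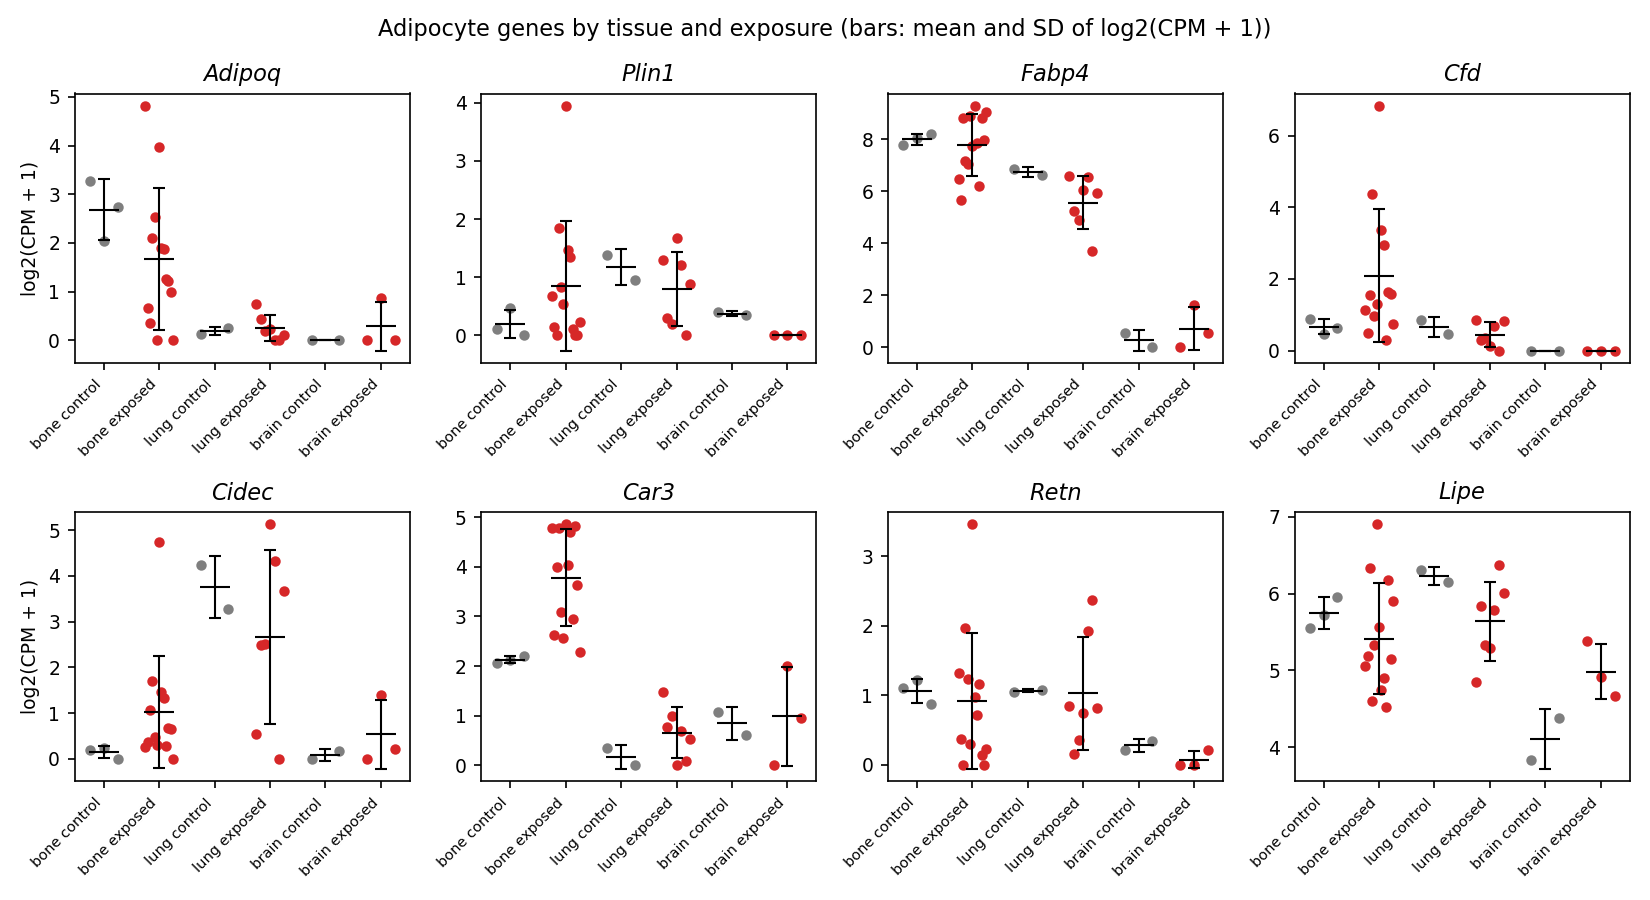
Level of each gene, as log2(CPM + 1), in every library of the 6 groups (controls grey, exposed red), with the mean and SD of log2(CPM + 1) as black bars. Fabp4, Adipoq and Car3 are highest in bone, Cidec is higher in lung controls than in bone controls, and of the 8 genes Lipe alone is above 10 CPM in all brain libraries.

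Among tumour-free controls, the tissues differed. Adipoq stood at 5.82 ± 2.80 CPM in bone (n = 3) and 0.138 ± 0.0682 in lung (n = 2), and at 0 in both brain libraries, which allows up to 0.478 and 0.400 CPM. Fabp4 stood at 259 ± 38.0, 107 ± 13.2 and 0.239 ± 0.338 CPM in bone, lung and brain. Car3 stood at 3.39 ± 0.227, 0.134 ± 0.190 and 0.825 ± 0.412. Cidec had another order, 0.114 ± 0.1003 in bone, 13.3 ± 6.43 in lung and 0.0666 ± 0.0942 in brain, and Lipe was highest in lung at 74.0 ± 6.05, then bone at 53.0 ± 7.73 and brain at 16.5 ± 4.68. Retn stood at 1.102 ± 0.247 in bone and 1.096 ± 0.0289 in lung. In bone against lung controls 5 of the 6 members tested were called (Adipoq, Fabp4 and Car3 higher, Cidec and Lipe lower in bone), where 44.8% of 18859 genes were called. In bone against brain controls 5 of 6 were called, all higher in bone (Adipoq, Fabp4, Car3, Retn and Lipe), where 75.8% of genes were. Both comparisons share the bone controls on which the members were chosen, so nothing is read from these counts. The Lipe call against lung was lost without bone control 1 (log2 difference -0.41) or without lung control 1 (-0.40). Plin1, at 0.151 ± 0.199 CPM in bone and 1.27 ± 0.483 in lung, did not pass the low count filter there but was called lower in bone without the low count filter and when bone control 2, lung control 2 or either brain control was left out, though not with DESeq2. Of 36 other adipocyte genes tested, 8 were higher and 13 lower in bone than in lung controls, and 18 higher and 13 lower than in brain controls.

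Per kilobase of annotated exon, Fabp4 led in bone controls at 57.6 CPM, followed by Lipe at 9.004, Adipoq at 4.21, Car3 at 1.18, Retn at 0.698, Cfd at 0.643, Cidec at 0.0615 and Plin1 at 0.0325. Retn and Cfd overlapped between libraries, as did Cidec and Plin1, and the other neighbours in this order did not. The annotated exons of Fabp4 together span its whole gene (4489 bases), which lowers its value per length. In exposed bone the mean per kilobase was 63.8 for Fabp4, 13.4 for Cfd, 8.05 for Lipe, 5.46 for Car3, 3.33 for Adipoq, 1.44 for Cidec, 0.948 for Retn and 0.372 for Plin1, an order in which Cfd stood second. Library 7 held 70.0% of the summed CPM of Cfd over the bone libraries.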

How the data were processed

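Raw counts of reads for 43346 Ensembl mouse gene IDs in 30 libraries came from 1 table that the authors deposited, with no normalization. The submitters' processing notes name STAR 2.5.2b, HTSeq and the builds mm10 and GRCm38.p5 beside human ones. Not given in the sources used here are the annotation, the strand setting and how human and mouse reads were separated. Symbols, coordinates and exon lengths came from GENCODE M21 (GRCm38), and 42462 IDs had a symbol.

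Groups came from the labels. Exposed replicates are numbered in accession order, controls by their titles. CPM are counts per 1000000 counts of the library total, and log2(CPM + 1) was used for correlations. The tests used edgeR 4.0.16 under R 4.3.3 (TMM, filterByExpr, two-sided robust quasi-likelihood F-test, Benjamini-Hochberg over all genes, adjusted p threshold 0.05). Exposed and control libraries were compared within each tissue, control tissues in 1 fit of all 7 controls, and differences of the exposure effect between tissues in 1 fit of all 30 libraries. The test was tried on simulated data. Alternatives were RLE and upper quartile scaling, no filter, DESeq2 1.42.0, limma-voom (limma 3.58.1), each library left out (bone libraries only for the differences of effects), a replicate block and single CTC lines in bone.

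The members and gene lists were chosen with earlier results of these data known. All members are named. Other adipocyte genes are given by counts in 8 roles, with up to 3 named per role by mean CPM over the 16 bone libraries, and further ones named for library 7 were chosen after their values were seen. The 10 genes by likeness exclude Gm, Rik and pseudogene symbols.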

Additional observations from a re-analysis of the deposited data

Results flagged for a closer look

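In a group of 7 or 4 libraries, a member's value was singled out when its gap to the nearest other library took most of the group's range (Dixon's 95% limit). Of 24 groups looked at, 6 held such a library. Chance singles out about 1 in 20 groups where values are normally distributed and genes are not chosen on them. Here the CPM were skewed and the genes were so chosen, so the number is a description only. Library 7 of exposed bone stood far above the 6 other Brx68 libraries for Adipoq (14.6 CPM, next 2.73), Plin1 (14.5, next 1.76), Cfd (113.9, next 9.42), Cidec (25.7, next 1.76) and Retn (10.02, next 1.24). Library 4 stood far above the 3 other Brx50 bone libraries for Cfd (19.8, next 1.92). The flags for library 7 are 5 genes of 1 library and are not independent of each other. No library was singled out among the 7 of exposed lung.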

How the results depend on the processing

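The count of called genes depended on the tool. Against 0 genes in bone, DESeq2 called 18 and limma-voom with quality weights 2866. Against 0 in lung they called 2 and 1, and against 1 in brain 683 and 899, with 273 in brain without the low count filter. For Brx68 against Brx50 DESeq2 called 46. For the difference of effects between bone and lung they called 10 and 319, and between bone and brain 96 and 1645. Leaving out 1 library gave 0 to 2 genes in bone (2 without exposed library 8), 0 to 69 in brain (69 without exposed library 1), 6477 to 8506 for bone against lung controls and 12678 to 14405 for bone against brain controls, and 0 in lung and between the lines. For the differences of effects only bone libraries were left out, which gave 0. With a replicate block the controls gave 7377 and 13524 calls, against 8456 and 14303, and the same members were called. Deviations of control libraries of equal number had an r from -0.062 to 0.033. With 2 lung and 2 brain controls each r comes with its negative, so this cannot tell whether libraries were paired. The brain controls are numbered differently in their titles and in the deposited counts, and the block used the titles.

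For the members, signs changed only among differences that were not called. Leaving out 1 library, Cidec in lung ran from -0.96 to 0.31 (the latter without control 1). Retn in lung was -0.58 with limma-voom and ran from -0.24 (without exposed library 6) to 0.64. Retn in bone against lung controls ran from -0.17 to 0.16 (without bone control 3) and was 0.15 with the replicate block. Cidec in bone against brain controls was -0.15 with limma-voom and ran from -0.057 (without brain control 1) to 3.42. Retn in bone against brain controls lost its call with DESeq2, which called Cfd instead, and without brain control 1. The cause was not tested. Depth limits Plin1, Cidec and Retn, each under 30 counts in 15 of 16 bone libraries, and Cfd, under 30 in 12.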
